A study of Homo sapiens with 16 samples.

Results

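Chromatin accessibility on soft gel was compared with that on stiff gel in cells that had gone through selection on gels. The units compared were 95317 regions of chromosomes 1 to 22 in which the peak lists of both selected groups had at least 1 peak, out of 141887 regions held by either list and 161185 held by any list of the series. A region joins peaks that overlap by at least 1 bp. Peaks of 1 selected list that overlap no peak of the other were compared separately. The cells are MDA-MB-231, a long-established human line of breast adenocarcinoma origin, labelled WT. The 16 samples fall into 4 groups of 4: ancestral cells on soft polyacrylamide gel (1 kPa), ancestral cells on stiff gel (308 kPa), selected cells on soft gel and selected cells on stiff gel. All gels carried type I collagen. Selection ran for 75 days, with 20000 cells replated about weekly on fresh gel of the same stiffness. The labels do not say whether the selected cells on stiff gel had been selected on soft or on stiff gel, so the comparison is between selected cells sampled on either gel, and the selection history and the gel cannot be told apart.

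In ATAC-seq a transposase inserts sequencing adapters where DNA is accessible, so fragments pile up at open promoters and enhancers. Cells sense the stiffness of their surroundings through integrin adhesions and actomyosin tension. Known routes to the genome are the YAP and TAZ coactivators, which bind TEAD factors, and the MRTF coactivators of SRF, while many promoters of broadly used genes are rich in GC and CpG and carry SP1 sites.

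The promoters printed here belong to regions with large ratios and to the 2 gene-list members ARHGAP29 and ROCK2, because they show how base composition differed among promoters that were higher on stiff gel. SOX4, on the soft side but below 2-fold, is given beside them. Each runs 5′ to 3′ over 300 bases, from 250 before to 50 after the gene start, from RefSeq on GRCh38.p14, and capitals mark SP1 matches (GGGCGG or its reverse complement CCGCCC). They lie at chr7:44748321-44748620 on the plus strand (ZMIZ2), chr14:103057500-103057799 on the minus strand (CDC42BPB), chr1:11059969-11060268 on the minus strand (SRM), chr21:6110881-6111180 on the plus strand (LOC102724428), chr1:94247697-94247996 on the minus strand (ARHGAP29), chr2:11345388-11345687 on the minus strand (ROCK2) and chr6:21593501-21593800 on the plus strand (SOX4).
ZMIZ2: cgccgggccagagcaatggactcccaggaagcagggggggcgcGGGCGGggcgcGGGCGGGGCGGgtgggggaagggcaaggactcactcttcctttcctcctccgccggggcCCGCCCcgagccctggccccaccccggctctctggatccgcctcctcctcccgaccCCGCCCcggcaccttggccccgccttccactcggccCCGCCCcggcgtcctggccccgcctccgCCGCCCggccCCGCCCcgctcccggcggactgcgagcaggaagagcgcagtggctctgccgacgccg
CDC42BPB: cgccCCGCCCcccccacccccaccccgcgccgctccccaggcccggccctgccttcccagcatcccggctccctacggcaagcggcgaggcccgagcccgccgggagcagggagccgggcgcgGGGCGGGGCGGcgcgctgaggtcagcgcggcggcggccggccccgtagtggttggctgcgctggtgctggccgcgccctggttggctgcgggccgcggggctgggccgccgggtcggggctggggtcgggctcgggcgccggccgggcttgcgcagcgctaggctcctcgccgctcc
SRM: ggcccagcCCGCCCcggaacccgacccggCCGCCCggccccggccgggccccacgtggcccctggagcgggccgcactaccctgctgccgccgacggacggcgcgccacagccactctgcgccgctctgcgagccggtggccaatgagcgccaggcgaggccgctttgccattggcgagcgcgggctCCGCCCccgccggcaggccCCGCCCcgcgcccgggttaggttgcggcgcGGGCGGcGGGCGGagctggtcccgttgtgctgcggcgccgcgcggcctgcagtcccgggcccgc
LOC102724428: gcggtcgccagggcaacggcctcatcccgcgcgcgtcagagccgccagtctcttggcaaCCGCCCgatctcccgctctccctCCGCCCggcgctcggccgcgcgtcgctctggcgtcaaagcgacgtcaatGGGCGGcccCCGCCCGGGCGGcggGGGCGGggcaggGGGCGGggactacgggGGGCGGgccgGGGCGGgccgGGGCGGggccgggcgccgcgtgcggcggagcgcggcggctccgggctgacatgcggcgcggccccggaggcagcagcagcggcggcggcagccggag
ARHGAP29: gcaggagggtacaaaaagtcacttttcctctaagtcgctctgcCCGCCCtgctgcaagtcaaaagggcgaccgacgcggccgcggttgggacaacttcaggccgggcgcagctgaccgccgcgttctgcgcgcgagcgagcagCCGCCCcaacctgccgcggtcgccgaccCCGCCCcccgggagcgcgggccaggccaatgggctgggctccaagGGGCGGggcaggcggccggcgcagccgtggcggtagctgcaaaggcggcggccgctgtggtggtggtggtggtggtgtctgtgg
ROCK2: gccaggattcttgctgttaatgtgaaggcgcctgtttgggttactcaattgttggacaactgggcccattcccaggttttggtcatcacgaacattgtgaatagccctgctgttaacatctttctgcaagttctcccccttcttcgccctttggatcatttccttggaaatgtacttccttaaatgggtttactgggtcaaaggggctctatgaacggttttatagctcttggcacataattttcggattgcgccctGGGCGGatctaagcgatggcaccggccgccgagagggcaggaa
SOX4: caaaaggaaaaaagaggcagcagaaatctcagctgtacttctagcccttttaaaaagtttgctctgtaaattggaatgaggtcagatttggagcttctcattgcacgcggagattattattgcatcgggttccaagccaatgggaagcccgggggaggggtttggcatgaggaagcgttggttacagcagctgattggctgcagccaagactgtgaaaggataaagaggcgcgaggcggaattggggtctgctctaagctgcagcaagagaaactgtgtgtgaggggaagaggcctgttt
The GC content was 79.3% for ZMIZ2, 83.3% for CDC42BPB, 82.0% for SRM, 82.3% for LOC102724428 and 72.0% for ARHGAP29. It was 49.3% for both ROCK2 and SOX4. SOX4 does not stand for all promoters on the soft side. FAM110C and COLEC12, with larger soft-side ratios at their starts, had 78% and 79.7%. For both, the 300 bases lie just outside the measured region, so this is not the composition of the region itself.

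Each group was deposited as 1 peak list, so there is no spread between replicates, no p-value, and no check that a ratio would recur in other samples. The selected lists held 128150 (soft) and 120833 (stiff) peaks on chromosomes 1 to 22, and the ancestral lists 107292 and 113458. Read totals are not part of the files. The genome-wide background pileup, in fragments, was 13.5 and 12.6 in the selected lists. Median fold enrichment over that background, the authors' value, was 3.59 on soft gel and 4.19 on stiff gel. Each list also skips 1% of its peak numbers, and the peaks that bore those numbers were not analysed here. A total of 1586 shared regions (1.66%) overlapped such a stretch in either list, and the breakdowns use the 93731 regions where neither list skips a number. Cell identity markers were read at start sites. VIM, CD44, ZEB1, CAV1 and EGFR had pileups of 260 to 1070 on soft gel and 356 to 1427 on stiff gel, against list medians of 51 and 56. The ESR1, KRT5 and PTPRC starts, of luminal, basal and blood cells, had no peak in either list, whereas the luminal keratin gene KRT8 had pileups of 1334 and 1726. Of 8 markers of this line and of mesenchymal breast lines, 6 have a known start, and the 5 named above had a start-site region. A start is known for 8 of 12 luminal, 5 of 8 basal, 2 of 7 fibroblast, 5 of 9 blood and 7 of 8 neuron markers. Of these markers, 5 luminal, 4 basal, 2 fibroblast, 3 blood and 3 neuron ones had a start-site region. Their pileups on soft gel were 65 to 1334, 48 to 329, 134 to 163, 30 to 41 and 112 to 550 fragments, and on stiff gel 74 to 1726, 32 to 474, 167 to 195, 31 to 41 and 115 to 560. No marker measured at its start passed 2-fold.

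Accessibility differed little at most shared regions. The ratio is the log2 of the soft pileup over the stiff pileup, each divided by the list's median pileup (93 and 107 fragments) over the 70318 regions present in all 4 lists, and a region is called when it passes 2-fold. Of 95317 shared regions, 218 were called higher on soft gel (0.229%) and 540 higher on stiff gel (0.567%). Where every peak was listed the counts were 182 (0.194%) and 515 (0.549%) of 93731, and 91.2% of regions lay within 1.5-fold. The median ratio there was 0.10 and the middle of the distribution ran from -0.11 to 0.32 (quartiles). Exact conditional binomial 95% intervals, which cover counting error only, excluded 0 for 7195 regions above 0 (7.68%) and 9811 below 0 (10.5%). They also excluded it for all 182 and 515 called regions, but passing 2-fold at these pileups largely brings that about. It therefore adds no support to the calls, and 0 itself moves with the scaling. Fragments carry no molecular identifiers, so copies of 1 molecule cannot be told from separate ones. In bulk nuclei, fewer cells with an open region and less access per cell cannot be told apart.

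The balance of directions depended on the scaling. Calls higher on soft gel made up 28.8% of all calls with the scaling above. The share was 2.68% (42 against 1523 regions) when each list was divided by its background, 10.6% when divided by its median over shared regions, and 62.0% (602 against 369) when divided by its 75th percentile. It was 13.0% relative to the median within 5 Mb, 11.7% relative to regions of the same strength, and 68.6% (1619 against 741) after the background was subtracted. The last share covers only the 93731 regions with every peak listed, where the main scaling gave 26.1%. These scalings add -0.29, -0.12 and 0.12 to every log2 ratio for background, shared median and 75th percentile. The counts in each direction are therefore values for a stated scaling, and the statements that follow concern how regions compared with one another.

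The ratio moved with peak strength. In 10 equal bins of strength, the median ratio was 0.30 in the weakest bin, where the median pileups were 34 and 32. It was -0.09 in the strongest, at 600 and 754. A shared region needs a peak in both lists, so a weak region with a large change can be list-only instead. The soft scaling median was 0.869 times the stiff one, so equal pileups give a ratio above 0. How far this limit at weak regions shaped the trend was not tested. Calls higher on soft gel lay mostly at weak regions, with a median pileup of 65 on soft gel and 35 on stiff gel. Calls higher on stiff gel lay at stronger ones, with 117 and 354. The list-wide ratio of peaks to background moved with this, since the scaling median stood at 6.9 times background on soft gel and 8.48 times on stiff gel. Its part in the result was not tested.

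**Figure D1:**
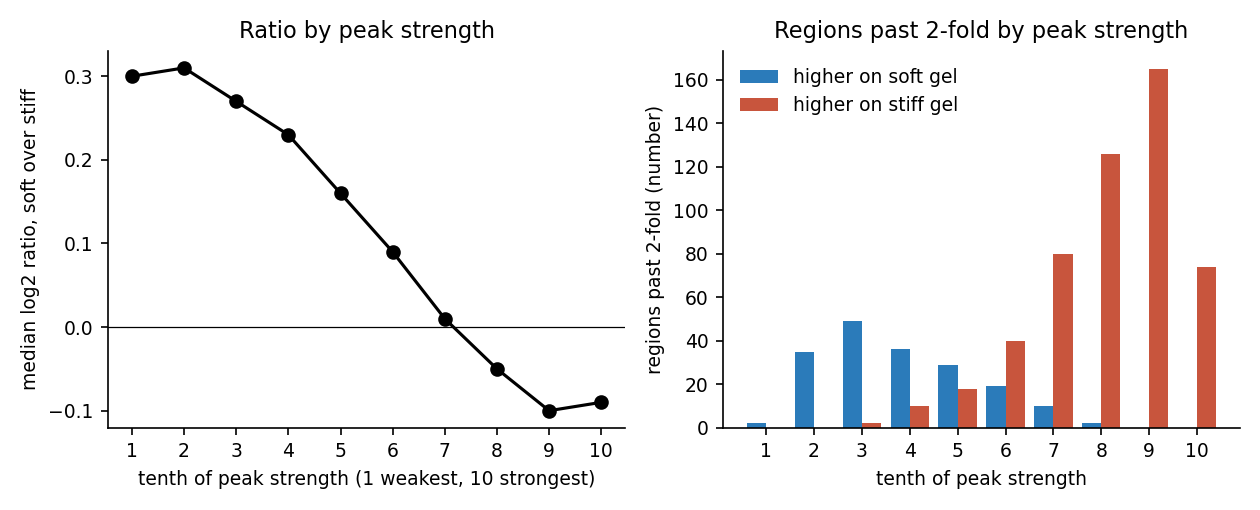
Left, median log2 ratio of scaled pileup (soft over stiff) in 10 equal bins of peak strength over 93731 regions. Right, number of regions past 2-fold in each direction per bin. The median goes from 0.30 to -0.09, calls higher on soft gel peak at 49 regions in bin 3, and calls higher on stiff gel peak at 165 in bin 9.

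Regions called higher on stiff gel lay largely at gene starts. A start-site region lies within 1 kb of an annotated start, known here for 15100 of 19122 protein-coding genes (79.0%) and for none on chromosome 8. A region whose only start is not known counts among the other regions. Of the 515 regions called higher on stiff gel, 312 were start-site regions. Outside chromosome 8 that was 63.0%, against 11.4% of all regions and 5.17% of those called higher on soft gel. Among 10231 start-site regions, 9 were called higher on soft gel and 312 on stiff gel. The 79544 other regions outside chromosome 8 gave 165 and 183. The median ratio was -0.09 at start-site regions and 0.13 at the others. Relative to regions of the same strength the medians were -0.05 and 0.00, and the start-site counts were 1 and 270. Stiff-side calls outnumbered soft-side calls at start sites under every scaling and centring run, from 24 against 160 relative to promoters of like GC content to 1 against 730 with background scaling. Counted by gene, 9 of 10741 genes with a start-site region were called higher on soft gel (0.0838%) and 333 higher on stiff gel (3.10%).

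Promoter base composition went with the ratio at start sites. Promoters of regions called higher on stiff gel had a median GC content of 76.3% and 39 CpG per 300 bases, against 65.3% and 26 for all start-site regions. For the 9 start-site regions called higher on soft gel the medians were 68.3% and 23. In 10 bins of GC content the median ratio was 0.01 in the lowest, -0.05 in bin 5, -0.34 in bin 9 and -0.26 in bin 10. The share called higher on stiff gel was 1.37% in the lowest bin, 8.60% in bin 9 and 11% in bin 10. Across the 10231 regions the Spearman coefficient between ratio and GC content was -0.35 and Pearson's r was -0.32. These regions share the same 2 lists and are not independent. Ancestral cells on the same gels, from other libraries, gave a Spearman coefficient of -0.24 over 9137 of these regions, with medians of -0.05 in the lowest bin and -0.28 in bin 10. The part of base composition in the result was not tested.

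**Figure D2:**
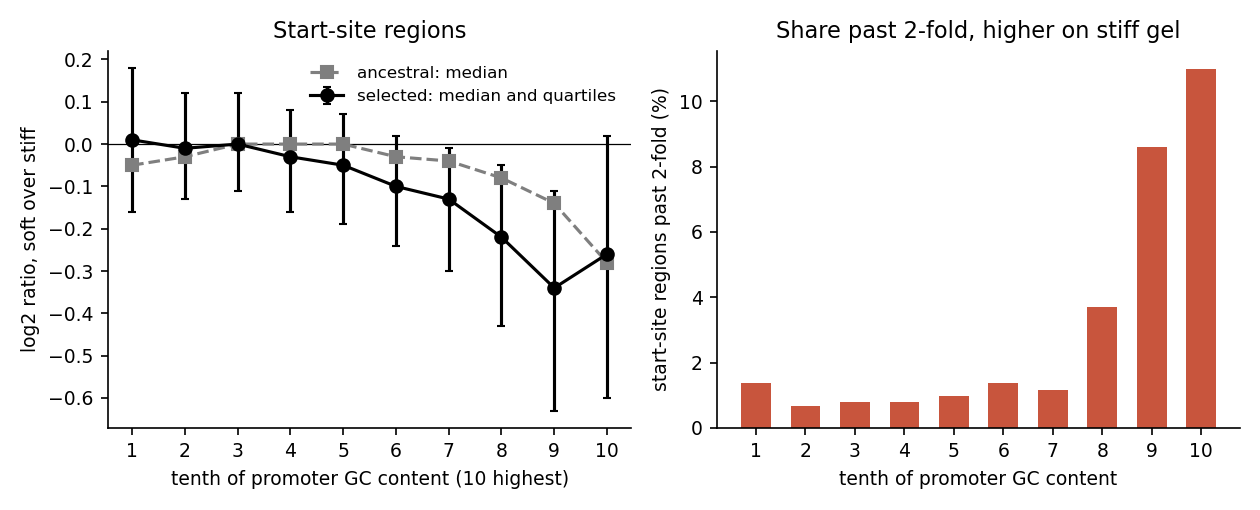
Left, log2 ratio (soft over stiff) of start-site regions in 10 equal bins of promoter GC content, as medians with quartiles for selected cells (black) and medians for ancestral cells (grey). Right, percent of start-site regions past 2-fold higher on stiff gel, from 1.37% in bin 1 to 11% in bin 10.

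Motif letters at promoters were counted on both strands of the 300 bases. An SP1 match was present in 86.9% of promoters of the 312 start-site regions called higher on stiff gel, in 69.9% of those of all start-site regions and in 58.9% of all 15100 promoters. The median ratio was -0.12 at start-site regions with the match and -0.02 at those without. Within bins of GC content it was lower with the match in 9 of 10 bins, at -0.06 and -0.03 in bin 5, -0.34 and -0.24 in bin 9 and -0.26 and -0.19 in bin 10, where 17 regions lacked it. In bin 8 it was -0.21 with and -0.26 without. TEAD letters (GGAATG), bound by the partners of YAP and TAZ, were in 9.94% of the called set and 10.8% of start-site regions. AP-1 letters (TGANTCA) were in 3.21% and 4.55%, and ETS letters (CCGGAAG) in 11.2% and 16.8%. NRF2 letters (TGACNNNGC) were in 18.3% and 14.7%, the E-box CACGTG in 9.29% and 9.73%, and the hypoxia letters ACGTG, which the E-box contains, in 26.9% and 25%. The CArG box of SRF was in 0.641% and 1.06%. Over all promoters the shares were 11.7% for TEAD, 5.70% for AP-1, 14.4% for ETS, 14.2% for NRF2, 8.77% for the E-box, 23.6% for hypoxia and 1.23% for the CArG box.

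Regions were named by size of ratio among those whose higher scaled pileup reached the scaling median. Taken over all shared regions the rule picked 10 of 10 regions on the soft side and 8 of 10 on the stiff side at skipped peak numbers, so it was repeated where every peak was listed. Of the 10 regions highest on stiff gel, 8 lay at known starts.

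ZMIZ2, which encodes a PIAS-like transcriptional coactivator, had a pileup of 130 fragments on soft gel and 668 on stiff gel at chr7:44747697-44749856. The log2 ratio was -2.16 (95% interval -2.44 to -1.89). The region shared by the starts of PLAGL2, a zinc finger factor, and POFUT1, which puts O-fucose on Notch, held 108 and 552 fragments at chr20:32206547-32209252 (-2.15, -2.46 to -1.85). At CDC42BPB, a Cdc42-binding kinase that promotes actomyosin contraction, the values were 85 and 422 at chr14:103056697-103058574 (-2.11, -2.46 to -1.77). In all of these the stiff pileup was over 4-fold the soft one after scaling. GLTP, a glycolipid transfer protein, had 61 and 298 fragments (-2.09) and SRM, the spermidine synthase, 148 and 715 (-2.07). FHIP2A had 55 and 250 (-1.98), ELAC1, a tRNA 3′ processing enzyme, 79 and 351 (-1.95), and MED13L, a Mediator subunit, 45 and 195 (-1.91). A region in PRODH, which oxidises proline, had 37 and 194 (-2.19), and one 72 bp outside MAST1 had 35 and 169 (-2.07). Neither is within 1 kb of a known start, but starts are not known for every gene, so either may lie at one. At each of these 10 loci the ancestral ratio was also below 0, from -0.45 at ZMIZ2 to -1.27 at FHIP2A.

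The largest ratio on the stiff side was at LOC102724428 (chr21:6109738-6111134), with 37 fragments on soft gel and 217 on stiff gel (-2.35, -2.89 to -1.84). This gene is a copy of SIK1, a salt-inducible kinase, and their promoters are identical at 300 of 300 positions. At the SIK1 start (chr21:43427074-43428306) the stiff list had a peak of 212 fragments and the soft list had none. Reads cannot be placed between identical copies, so both values are uncertain. In ancestral cells the ratio at LOC102724428 was 0.10. The remaining named start, LOC105375947, had 73 and 329 fragments (-1.97) and a promoter GC content of 57.3%, the lowest among the 10.

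Regions highest on soft gel were mostly away from known starts. The largest ratio was 23.9 kb outside GALNT18, a mucin-type glycosyltransferase gene, at chr11:11245756-11247169, with 149 fragments on soft gel and 36 on stiff gel (2.25, 1.72 to 2.82). A region in CLIC5, an intracellular chloride channel family gene, had 126 and 37 fragments (1.97) at chr6:46062148-46062751. JARID2, a cofactor of Polycomb complex PRC2, had 354 and 130 within its body at chr6:15504204-15505752 (1.65, 1.35 to 1.95), the strongest of these regions. KCNIP3, a potassium channel partner, had 253 and 91 (1.68), and MTHFD1L, a mitochondrial folate enzyme gene, 108 and 45 (1.47). The regions nearest TPTE (1.86) and LOC124905938 (1.34) lie 49.9 kb and 20 kb from those genes, near centromeres. Regions at SOBP and TMEM163 had ratios of 1.22 and 1.20. In ancestral cells the same regions gave 0.86 at LOC124905938, 0.84 at CLIC5, 0.83 at TPTE, 0.54 at SOBP, 0.31 at JARID2 and 0.00 at TMEM163. Only GALNT18 at -0.29 and KCNIP3 at -0.08 were below 0, and MTHFD1L had no ancestral value.

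At start sites, the soft side held smaller ratios. Only FAM110C passed 2-fold among those above the strength minimum, with 94 and 40 fragments (1.43, 0.89 to 2.01). COLEC12, a scavenger receptor gene, had 214 and 144 (0.77), MMP21, a matrix protease gene, 121 and 87 (0.68), and SOX4, a developmental transcription factor gene, 210 and 153 (0.66). The region at HOXA10, a homeobox gene, had 105 and 77 (0.65), KLK7, a secreted protease gene, 138 and 104 (0.61), TCP11 104 and 78 (0.62), and SCPEP1 130 and 100 (0.58). Those below 2-fold are values, not calls. The regions at MMP21, KLK7 and TCP11 were 4830, 4544 and 4275 bp wide, so their highest pileup need not lie at the start.

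**Figure D3:**
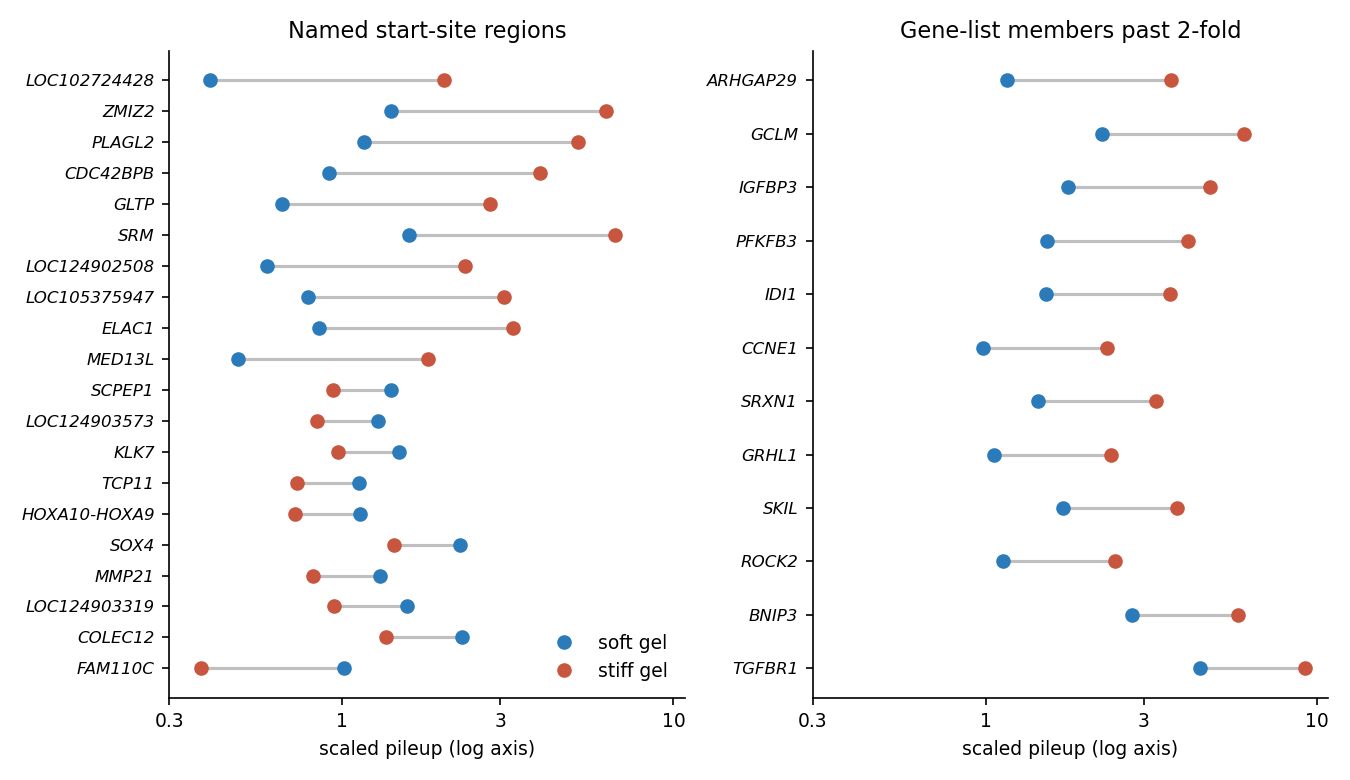
Scaled pileup on soft gel (blue) and stiff gel (red), on a log axis, at the 20 named start-site regions (left) and at the 12 gene-list members past 2-fold (right). The first 10 regions on the left, LOC102724428 to MED13L, are all higher on stiff gel, as are all 12 members on the right.

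The 20 gene lists hold 431 symbols, of which 424 are on chromosomes 1 to 22 and 326 have a known start. A start-site region was measured for 261. Of the rest with a known start, 34 lay at a skipped number, 17 had no peak in either list, 6 had peaks in both that did not form 1 region, 5 had a soft-list peak only and 3 a stiff-list peak only. Of the 261, 12 were called higher on stiff gel (4.6%, against 3.10% of all genes) and 0 higher on soft gel. The count of 12 was 26 with background scaling and 6 relative to promoters of like GC content.

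The 12 members came from 9 lists. Among YAP/TAZ-TEAD targets, ARHGAP29, a GTPase-activating protein, had 108 fragments on soft gel and 388 on stiff gel at chr1:94245126-94250190 (-1.64, -1.96 to -1.33). IGFBP3, which binds insulin-like growth factors, had 165 and 510 at chr7:45920041-45925197 (-1.43, -1.69 to -1.17). ROCK2, a kinase that drives myosin contraction, had 105 and 263 at chr2:11342632-11345700 (-1.12, -1.46 to -0.79). The TGF-beta receptor TGFBR1 had 413 and 988 (-1.06), and SKIL, a repressor of SMAD signalling, 159 and 405 (-1.15). The antioxidant genes GCLM, for glutathione synthesis, and SRXN1, a sulfiredoxin, had 208 and 643 (-1.43) and 134 and 349 (-1.18). PFKFB3, which promotes glycolysis, had 142 and 436 (-1.42), and BNIP3, a mitophagy gene, 258 and 620 (-1.06). CCNE1 (cyclin E1) had 91 and 248 (-1.24), IDI1, an isoprenoid enzyme, 141 and 385 (-1.25), and GRHL1, an epithelial factor, 99 and 256 (-1.17). Promoter GC content was 71.7% to 81.0% in 11 of them, ROCK2 being the other. Relative to promoters of like GC content the ratio was -1.14 at ROCK2, -1.43 at ARHGAP29 and -0.80 at TGFBR1 and BNIP3. In ancestral cells all 12 were below 0, from -0.30 at PFKFB3 to -1.15 at ROCK2.

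All other YAP/TAZ-TEAD targets measured at their start were below 2-fold. CCN2, a matricellular factor, had 526 and 848 fragments at its start (-0.49), ANKRD1 396 and 530 (-0.22), LATS2 341 and 520 (-0.41), and AMOTL2 494 and 765 (-0.43). FSTL1 (0.46), AJUBA (0.14), MYOF (0.08) and FOXF2 (0.04) stood above 0 at their starts, and the remaining measured starts of the list below 0. CCN1 has no start in the promoter table, and its 6 regions ran from -1.03 to -0.06. YAP1, the coactivator itself, had 397 and 671 at its start (-0.55). Of the 20 YAP/TAZ-TEAD targets with a known start, 18 had a start-site region, 2 of which were called, and the median was -0.25. Relative to promoters of like GC content that median was -0.04, against -0.01 for all genes, and the Hippo pathway list went from -0.24 to -0.04. Among SRF and MRTF genes 11 of 18 starts were measured and 0 were called, with a median of -0.16. TPM1, a tropomyosin that stabilises actin filaments, was closest to the threshold at 331 and 746 (-0.97). VCL (vinculin) had 1242 and 1660 (-0.22), MYH9 (non-muscle myosin) 1608 and 2318 (-0.33), and LMOD1 239 and 202 (0.44). SRF had peaks in both lists that did not form 1 region, and FOS and EGR1 lay at skipped numbers.

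Across the 20 lists, start-site medians ran from -0.31 for TGF-beta pathway genes and -0.30 for hypoxia and glycolysis genes to 0.08 for interferon response genes and 0.09 for ribosomal protein genes, against -0.09 for all genes. They differed from all genes by -0.22, -0.21, 0.17 and 0.18. Median promoter GC content was 68.0% and 70.3% in the first pair and 53.3% and 57.0% in the second. Relative to promoters of like GC content these medians were -0.15, -0.17, 0.12 and 0.10. Within the TGF-beta list SMAD2 stood at -0.80 and BMPR2 at -0.70, and among hypoxia genes HIF1A at -0.79 with 771 and 1539 fragments. INSIG1, a sterol sensor, stood at -0.82 with 526 and 1065, and JUN, the strongest AP-1 start measured, at 0.08 with 2176 and 2368.

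Over all regions assigned to list genes, including those away from starts, medians ran from -0.03 for YAP/TAZ-TEAD targets (305 regions, 0 called on the soft side and 5 on the stiff side) to 0.12 for hypoxia genes (186 regions, 1 and 2). The median over all 82351 assigned regions was 0.08, with 133 called on the soft side and 505 on the stiff side. The lists differed from it by -0.11 to 0.03, which no scaling changes, and 16 of 20 lay below it. Among YAP/TAZ-TEAD targets 18 of 25 genes had a median below 0, against 6310 of 15851 over all genes. Relative to regions of the same strength the counts were 20 of 25 and 8441 of 15851. Among its genes with at least 5 regions, NUAK2, a kinase, had the lowest median at -0.47 over 7 regions, and FOXF2 the highest at 0.24 over 17. Less the median within 5 Mb these were -0.52 and 0.04. Matrix and adhesion genes pointed both ways, with LOXL2, a collagen crosslinking enzyme, at -0.26 over 8 regions, COL5A1 at 0.24 over 69, ITGA3 at -0.24 over 5 and VAV2 at 0.33 over 58. Less the median within 5 Mb, LOXL2 stood at -0.22 and ITGA3 at -0.32, but COL5A1 at 0.04 and VAV2 at 0.13. Relative to regions of the same strength COL5A1 stood at 0.06 and VAV2 at 0.07. At COL5A1 the start alone stood at -0.55 (396 and 666 fragments) and at VAV2 at -0.28 (358 and 499), opposite in sign to the median over their regions. WWC1, a Hippo regulator, stood at -0.31 over 20 regions and SMAD7, an inhibitory SMAD, at -0.45 over 11.

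**Figure D4:**
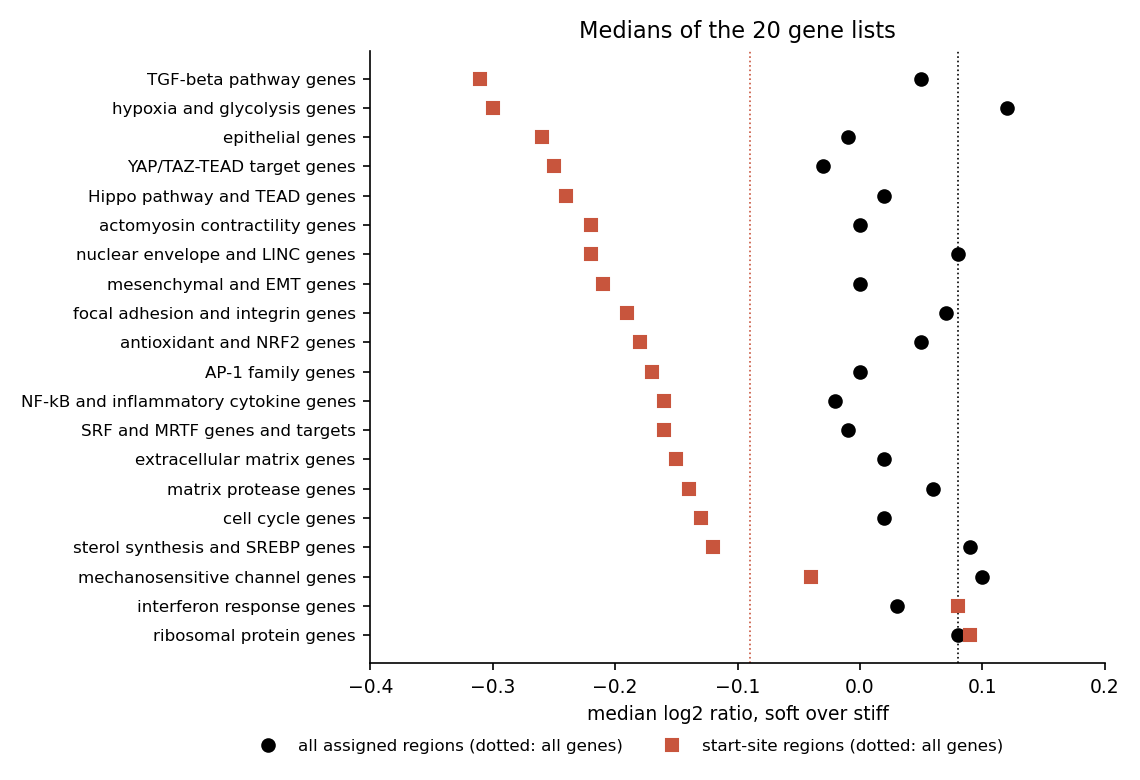
Median log2 ratio (soft over stiff) of each of the 20 gene lists, over all assigned regions (circles) and over start-site regions (squares). Dotted lines are the medians over all genes, 0.08 and -0.09. Squares lie left of circles in every list but the interferon response and ribosomal protein lists.

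Peaks held by 1 selected list only were more numerous on soft gel. There were 27277 soft-only peaks, 21.3% of the soft list (Clopper-Pearson 95% interval 21.1% to 21.5%), and 16662 stiff-only peaks, 13.8% of the stiff list (13.6% to 14.0%). The log2 ratio of the counts was 0.71 (0.68 to 0.74, counting error only). A further 1031 and 1600 peaks could not be assigned because the other list skips a number there. These peaks were weak, with a median fold enrichment of 2.42 and 2.57 against 4.56 and 4.92 at shared peaks. When only peaks reaching a −log10 q of 10 were kept the balance reversed, to 1511 soft-only and 3107 stiff-only peaks (-1.04), and with the same number of top peaks from each list it was 0.26. Start sites held 1.56% of soft-only and 2.39% of stiff-only peaks.

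Stiff-only peaks coincided more often with ancestral peaks. Of them 35.9% (35.2% to 36.7%) overlapped a peak of ancestral cells on soft gel and 43.9% one on stiff gel, against 17.4% (16.9% to 17.8%) and 17.7% of soft-only peaks. Neither ancestral list held 77.4% of soft-only and 52.3% of stiff-only peaks. For soft-only and stiff-only peaks that reached a −log10 q of 10, the overlap with the ancestral stiff list was 62.2% and 90.2%. At shared peaks the overlap with that list was 79.4% and 77.8%.

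The strongest soft-only peak lay 65.1 kb from GADD45G, a stress response gene, at chr9:89671518-89671898 with 137 fragments. It was followed by peaks near MBOAT2 (123), in CDHR2 (120) and TRAK1 (119), near PIRT (103) and ZNF707 (102), and in DTL (101), a replication-coupled ubiquitin ligase gene. SOBP had a soft-only peak of 101 fragments as well as its shared region higher on soft gel. Peaks of 97 lay 16.2 kb from SLC22A23 and in MAMDC2. The strongest stiff-only peak was 95 bp from GNG7, a G protein subunit gene, at chr19:2702528-2702983 with 246 fragments. After it came ANKRD28 (215), SIK1 (212), CAMTA1 (211), RIN2 (192), a Rab5 exchange factor gene, and a peak 60 kb from GAB4 (185). Next were PNPLA8 (181), EFL1 (162), AGAP1 (160) and HPCAL1 (157). Of these 10, 8 coincided with a peak in both ancestral lists, the exceptions being ANKRD28 and RIN2, against 32% of all stiff-only peaks. Of the 10 soft-only peaks named, 2 did (MBOAT2 and MAMDC2), against 12.4% of all soft-only peaks. The named peaks are among the strongest, so shares over all list-only peaks, mostly weak, are no like comparison. Among soft-only peaks reaching a −log10 q of 10, 61.5% overlapped the ancestral soft list and 62.2% the ancestral stiff list. Among stiff-only peaks reaching it the shares were 77.9% and 90.2%.

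Genes with the most list-only peaks were long, from 323 to 1049 kb. TRAPPC9 had 86 soft-only and 20 stiff-only peaks, PTPRN2 71 and 27, SHANK2 54 and 33, PLXNA4, a semaphorin receptor gene, 48 and 7, and ZFAT 47 and 4. Elsewhere within 5 Mb there were 267 soft-only and 57 stiff-only peaks around ZFAT, 201 and 64 around PLXNA4, 187 and 75 around TRAPPC9 and 245 and 54 around PTPRN2. Near SHANK2 they numbered 242 and 234. On the stiff side SORCS2 had 28 soft-only and 29 stiff-only peaks, CELF4 25 and 22, and CAMTA1 39 and 21. Around these genes the counts were 217 and 122, 17 and 26, and 299 and 128.

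Position on the chromosome also went with the ratio. Relative to regions of the same strength, chromosome medians ran from -0.14 on chromosome 21 to 0.07 on chromosome 15, with -0.07 on chromosomes 13 and 18. The log2 ratio of soft-only to stiff-only counts was lowest on the same chromosome 21 (169 and 435 peaks, -1.36) and on chromosome 13 (154 and 295, -0.94), and highest on chromosome 20 (1900 and 677, 1.49) and chromosome 6 (2379 and 919, 1.37). Of 289 windows of 10 Mb with at least 20 regions, 267 (92.4%) had a median within 0.1 of 0. The highest were 120 to 130 Mb of chromosome 1 (0.32), 20 to 30 Mb of chromosome 19 (0.26) and 40 to 50 Mb of chromosome 5 (0.26), windows that hold or adjoin centromeres. Ancestral cells gave 0.39, 0.42 and 0.38 there. The lowest were 50 to 60 and 60 to 70 Mb of chromosome 18, both at -0.25, and 30 to 40 Mb of chromosome 21 at -0.19, where ancestral cells gave -0.05, -0.06 and -0.01. DNA copy number and accessibility per copy both raise pileup and cannot be told apart here.

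**Figure D5:**
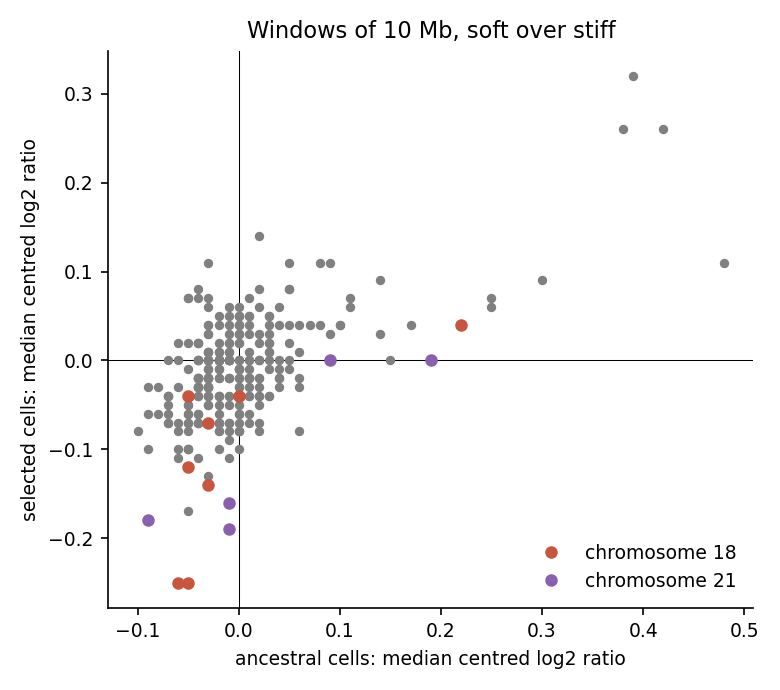
Median log2 ratio (soft over stiff, relative to regions of the same strength) of 289 windows of 10 Mb in selected cells (vertical axis) and ancestral cells (horizontal axis). The 3 windows above 0.2 in selected cells are at 0.38 to 0.42 in ancestral cells, and the lowest windows, on chromosomes 18 and 21, are near 0 in ancestral cells.

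The ratio in ancestral cells came from other libraries at the same regions. In 70072 regions with peaks in all 4 lists and no skipped number, the Spearman coefficient between the selected and ancestral ratios was 0.40 and Pearson's r 0.35, as a description across regions that share the same 4 lists. The Spearman coefficient was 0.36 relative to the median within 5 Mb, 0.35 relative to regions of the same strength, and 0.40 over 9137 start-site regions relative to promoters of like GC content. In ancestral cells 271 of these regions were called higher on soft gel (0.387%) and 566 higher on stiff gel (0.808%). Of 507 regions called higher on stiff gel in selected cells, 495 had an ancestral ratio below 0, with a median of -0.49. Over all 70072 regions 33528 were below 0 and 36539 above, with a median of 0.01. The calls themselves coincided at 46 regions, 9.07% of the selected and 8.13% of the ancestral calls. Of 123 called higher on soft gel, 106 had an ancestral ratio above 0, with a median of 0.35, and 0 were called in ancestral cells. No region was called in opposite directions in both populations. Whether the ratio differed between populations was not tested, since each group is 1 list.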

How the data were processed

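ATAC-seq libraries were made on 50000 nuclei, isolated from 200000 cells per sample, per the labels' protocols. Reads were handled on GRCh38 with Bowtie2 2.4.5, MACS2 2.2.7.1, Trimmomatic 0.36, MultiQC 1.1 and FastQC 0.11.4, per the submitters' processing notes. The authors deposited 1 peak list per group, with pileup signal at the summit (whole fragments, not scaled to depth), fold enrichment ratio over 1 background per list and −log10 q-value, per the file headers. The way the 4 samples of a group were combined is not given in the sources used here.

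Overlapping peaks were merged, the highest pileup per list was kept, and ratios used the median over regions in all 4 lists. Summits were assigned to the nearest RefSeq protein-coding gene within 100 kb. Intervals are exact binomial at 95%. The steps were tested on simulated data, with pileups raised to a minimum above both selected list medians and planted changes larger than 2-fold. Weak peaks and changes near the threshold were therefore not covered. Strength centring subtracts the median of 50 bins. The members, lists and tests were chosen with earlier results of these data known. Named were, per direction, the 10 largest ratios above the scaling median (all and start-site regions, 1 per gene). Also named were list members past 2-fold at their start or with the 2 lowest and highest medians over at least 5 regions. List-only peaks named were, per direction, the 10 with the highest fold enrichment within 100 kb of a gene, 1 per gene. The 5 genes with most list-only peaks per direction were named too. Other genes, among them CCN2, TPM1, SMAD2 and HIF1A, were named after their values were seen, as was the restriction to regions with every peak listed. Tools were scipy 1.17.1, pandas 2.3.3, matplotlib 3.10.9 and numpy 2.4.6 in Python 3.11.15.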

Additional observations from a re-analysis of the deposited data

Results flagged for a closer look

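Chromosome X lay outside the comparison. It held 109 soft-only and 262 stiff-only peaks in the selected lists, a log2 ratio of -1.27 against 0.71 on chromosomes 1 to 22. Its 1435 shared regions had a median log2 ratio of 0.03, with 1 region called higher on soft gel and 11 on stiff gel. The list-only balance on X therefore pointed the other way from that of most autosomes, and DNA copy number and accessibility cannot be told apart there.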

How the results depend on the processing

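No paired analysis was possible because each group is held as 1 pooled list, so the replicate numbers of the labels belong to no deposited value, and no replicate could be left out. The number of shared regions called higher on soft gel, 218, was 42 with background scaling, 602 with the 75th percentile and 96 with the median over shared regions. It was 78 with −log10 q of at least 10, 106 relative to the median within 5 Mb, 70 relative to regions of the same strength and 5869 at 1.5-fold. With background subtracted it was 1619, over regions with every peak listed only, where the main count was 182. The number higher on stiff gel, 540, was 1523 with background scaling and 2606 at 1.5-fold, and 369 to 810 otherwise. List-only counts moved with −log10 q of at least 10, to 1511 soft-only and 3107 stiff-only peaks, and stayed within 1.5 times otherwise. At start sites the soft-side count of 9 was 14 with a 3 kb window, 4 relative to the median within 5 Mb, 20 with regions at skipped numbers, 1 relative to the same strength, 24 relative to like GC content, 43 with background subtracted, 1 with background scaling, 17 with the 75th percentile and 4 with the median over shared regions. The stiff-side count of 312 was 160 relative to like GC content and 730 with background scaling, and 213 to 450 otherwise. The 12 list members were 26 with background scaling and 6 relative to like GC content, and 10 to 18 otherwise. The cause of these shifts was not tested. Strength centring, background subtraction, GC centring, the start-site and list-member scalings and the handling of skipped numbers were chosen after seeing the data. Depth limits weak regions most: median pileups were 34 and 32 fragments in the weakest strength bin, and over all regions the median interval reached 0.50 either side.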
